A study of Mus musculus with 6 samples.

Results

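The genes described here are 47 mouse genes of DNA replication and cell division, 24 of S phase and 23 of mitosis, taken by symbol from a table of 32377 genes. All 47 were present in the table and all 47 passed the filter on low counts, the least count of any of them in a library being 36. The values come from RNA-seq of 6 libraries labelled as regulatory T (Treg) cells, CD4 T cells whose role is to restrain immune responses. In 3 libraries the cells were labelled TNFR2-deficient Treg, and in the other 3 TNFR2 positive Treg (TNFR2-positive below). TNFR2 (gene Tnfrsf1b) binds tumour necrosis factor at the cell surface, and the series asks which transcripts differ between Treg cells that lack it and those that carry it. The labels give no strain, age, tissue, sort, treatment or time, and do not say whether the deficiency is genetic. Nor do they tell whether different animals gave the libraries of a group, and the p-values therefore rest on library-to-library spread that may be technical.

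A dividing cell copies its DNA in S phase and separates the copies in mitosis. Before S phase, origins of replication are licensed by loading the ring-shaped MCM helicase. At S phase the helicase is activated, and polymerases with their clamp copy both strands while enzymes of nucleotide metabolism supply the building blocks. At mitosis cyclin B with CDK1, the Aurora and Polo-like kinases, kinetochores and spindle motors divide the chromosomes, and a ubiquitin ligase then destroys the mitotic proteins. Many transcripts of both sets are periodic and low in resting T cells. Their level in bulk RNA then reflects how many cells divide as well as how much each cell makes. In bulk libraries such as these, fewer dividing cells and less RNA per dividing cell cannot be told apart.

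The libraries held 19296082 to 24038118 counts. Tnfrsf1b was at 7.32 to 8.30 CPM in the TNFR2-deficient libraries and at 80.2 to 84.6 CPM in the TNFR2-positive ones, the direction of the labels (CPM is the count scaled to library size with TMM factors). The 7 Treg markers listed for the check summed to 29.0 to 35.4 CPM in the TNFR2-deficient libraries and to 484.3 to 533.7 CPM in the TNFR2-positive ones, with Foxp3, the defining factor of the lineage, at 1.34 to 1.53 against 73.0 to 76.9 CPM. The 9 markers of immature thymocytes, which include a strongly dividing stage, summed to 3041 to 3146 against 324.4 to 343.2 CPM. The 5 B cell markers summed to 6157 to 6436 against 4751 to 4952 CPM, so they exceeded the Treg markers in every library of both groups. The 7 erythroid markers summed to 17979 to 20531 against 4222 to 6994 CPM, the 7 myeloid markers to 654.3 to 699.6 against 438 to 488.3 CPM, the 5 of naive and mature T cells to 1659 to 1669 against 2220 to 2274 CPM, and the 6 of NK and cytotoxic cells to 53.4 to 55.4 against 140.3 to 146.6 CPM. Rag2 and Ptcra had a count of 0 in some TNFR2-positive libraries, and no other marker did in any library. Which of these cells the dividing cells were, and the part of these differences in the results below, was not tested.

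Replication and mitosis genes differed between the groups in both directions, and nearly all by less than 2-fold. With TNFR2 deficiency as labelled, 10 of the 47 members were higher, 20 were lower and 17 did not pass the test (edgeR's quasi-likelihood test, Benjamini-Hochberg adjusted p below 0.05 over 17022 genes). That is 63.8% called, against 69.3% of all genes tested and 74.8% of those within the members' range of mean CPM. Split by direction, 21.3% of the members were called higher and 42.6% lower, against 35.1% and 34.2% of all genes. Only Kif20a changed by at least 2-fold, which is 2.13% of the members against 21.5% of all genes past the threshold by that much. Members called with an absolute log2 fold change of at least 0.5 numbered 21, or 44.7%, against 45.4% of all genes. The 3 libraries of one group did not overlap the 3 of the other for 35 members, or 74.5%, and for 74.5% of all genes tested. The median log2 fold change (log2FC, TNFR2-deficient minus TNFR2-positive) was -0.14 for the S phase members and -0.12 for the mitosis members, beside 0.04 for all genes. These shares lie near or below the background, except that more members were lower. The counts by role below stand beside the same background, with 69.3% of all genes called and 74.5% without overlap. The members ran from -1.15 for Kif20a to 0.82 for Ube2c, and these extremes were both mitosis genes.

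**Figure D1:**
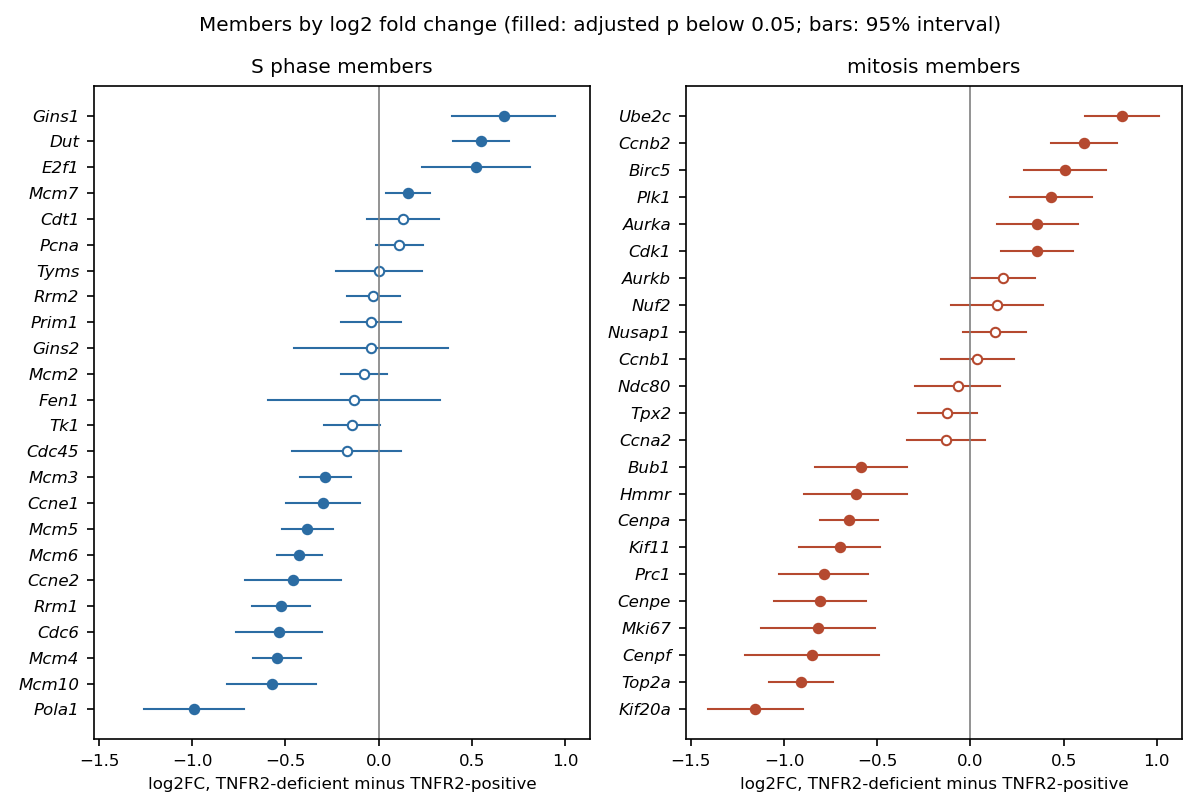
Log2FC of each of the 24 S phase members (left, blue) and 23 mitosis members (right, red), TNFR2-deficient minus TNFR2-positive, with 95% intervals from the edgeR fit (3 libraries a group); filled points passed an adjusted p of 0.05. Of the S phase members 4 were higher and 10 lower, and of the mitosis members 6 were higher and 10 lower.

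The promoters of these genes carry sequence elements long known from the cell cycle, and windows of 2 members that rose and 4 that fell are shown because they hold matches to such elements. RefSeq promoter windows (250 bases before to 50 after the transcription start, GRCm38.p6) were on hand for 39 of the 47 members. The build differs from the GRCm39 of the counts, and the coordinates below were not converted. Capitals mark 3 kinds of match on either strand: the cell cycle genes homology region (CHR, TTTGAA or TTTAAA), the CCAAT box (CCAAT), and the E2F consensus (TTTCCCGC, TTTCGCGC, TTTGCCGC or TTTGGCGC). Where 2 CCAAT boxes on opposite strands overlap, as once in Ube2c, the capitals run on. Each window is written 5′ to 3′ along its gene's strand.
Ube2c (chr2:164769679-164769978, plus strand): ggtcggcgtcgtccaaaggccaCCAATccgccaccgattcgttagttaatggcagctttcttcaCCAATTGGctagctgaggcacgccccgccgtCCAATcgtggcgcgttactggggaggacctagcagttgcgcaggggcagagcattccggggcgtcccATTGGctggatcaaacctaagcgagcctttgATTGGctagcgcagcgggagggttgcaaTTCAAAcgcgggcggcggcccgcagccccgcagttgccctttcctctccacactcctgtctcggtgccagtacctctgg
Ccnb2 (chr9:70421505-70421804, minus strand): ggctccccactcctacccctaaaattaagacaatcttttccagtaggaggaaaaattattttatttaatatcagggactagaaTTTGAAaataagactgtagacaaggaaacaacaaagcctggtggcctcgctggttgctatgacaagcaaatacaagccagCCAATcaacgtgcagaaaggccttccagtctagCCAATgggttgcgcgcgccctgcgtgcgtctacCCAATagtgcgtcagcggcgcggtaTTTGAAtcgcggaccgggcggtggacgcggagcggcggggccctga
Top2a (chr11:99024140-99024439, minus strand): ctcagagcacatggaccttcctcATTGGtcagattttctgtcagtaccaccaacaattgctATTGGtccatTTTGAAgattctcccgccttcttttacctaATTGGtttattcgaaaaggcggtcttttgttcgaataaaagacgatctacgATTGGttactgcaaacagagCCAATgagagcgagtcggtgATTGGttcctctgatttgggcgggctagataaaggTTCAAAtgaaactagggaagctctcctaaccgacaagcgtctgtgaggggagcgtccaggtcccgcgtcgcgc
Cenpf (chr1:189688037-189688336, minus strand): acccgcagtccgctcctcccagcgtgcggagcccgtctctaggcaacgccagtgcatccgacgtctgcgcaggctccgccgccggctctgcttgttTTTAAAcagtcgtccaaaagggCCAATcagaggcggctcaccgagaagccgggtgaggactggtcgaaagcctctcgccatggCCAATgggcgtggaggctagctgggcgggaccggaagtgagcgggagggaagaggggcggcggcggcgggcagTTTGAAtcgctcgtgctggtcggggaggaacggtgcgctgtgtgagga
Pola1 (chrX:93632106-93632405, minus strand): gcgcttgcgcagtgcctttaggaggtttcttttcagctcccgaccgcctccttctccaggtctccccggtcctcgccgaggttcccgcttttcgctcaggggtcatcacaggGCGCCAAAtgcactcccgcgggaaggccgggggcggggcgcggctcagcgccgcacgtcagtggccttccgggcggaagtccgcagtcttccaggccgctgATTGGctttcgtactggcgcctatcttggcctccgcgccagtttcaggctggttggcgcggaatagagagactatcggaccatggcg
Mcm10 (chr2:5012742-5013041, minus strand): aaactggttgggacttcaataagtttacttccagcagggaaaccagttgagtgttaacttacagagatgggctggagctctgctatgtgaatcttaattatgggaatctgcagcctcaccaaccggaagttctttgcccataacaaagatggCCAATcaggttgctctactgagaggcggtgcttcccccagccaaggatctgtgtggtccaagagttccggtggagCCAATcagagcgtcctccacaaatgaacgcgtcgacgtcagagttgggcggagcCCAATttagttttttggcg

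Ube2c and Ccnb2 rose in the TNFR2-deficient libraries, while Top2a, Cenpf, Pola1 and Mcm10 fell. The 4 mitosis genes among them hold a CHR close to the start, at position -29 in Ube2c, -23 in Top2a, 5 in Ccnb2 and 3 in Cenpf, counting the first transcribed base as 1 and the base before it as -1. The last 50 bases of the Ccnb2 window were not found in the annotated transcripts used here, so its start, and the positions counted from it, are less certain. The 4 windows also hold 2 to 6 CCAAT boxes each. Pola1 has the one E2F match among the 6, at position -138, with a single CCAAT box, and Mcm10 has 3 CCAAT boxes. Among the members with the greatest changes, Dut and E2f1 hold no match in the window, Birc5, whose start is uncertain in the same way, has a CHR only at position -220, and Gins1, Mcm4 and Kif20a have no entry. Each gene was given a single window. Whether those of Dut and E2f1 cover the main promoter of the gene was not tested, so the absence of matches holds for these windows only.

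The elements differed in frequency between the lists and stood in members that rose as well as in members that fell. A CHR was found in 16 of 19 mitosis windows and in 7 of 20 S phase windows, against 27.8% of all 27018 genes with a window. A CCAAT box was found in 15 of 19 and 12 of 20, against 37.9%, and an E2F match in 1 of 19 and 7 of 20, against 2.32%. By direction, a CHR was found in 6 of the 9 members that rose and in 10 of the 17 that fell, a CCAAT box in 6 of 9 and 15 of 17, and an E2F match in 2 of 9 and 5 of 17. These are counts of letters in a window, with no test, and they show neither binding nor its absence.

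**Figure D2:**
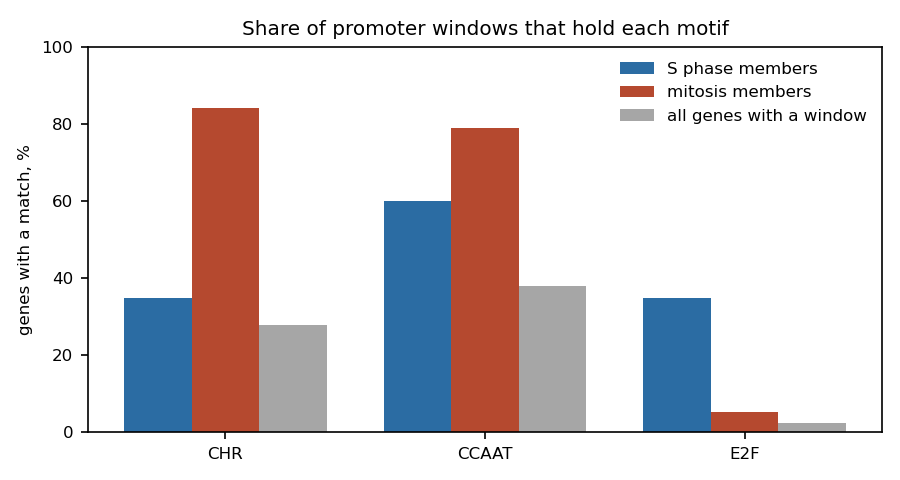
Share of promoter windows (percent, from 0) with at least 1 match to the CHR, the CCAAT box or the E2F consensus, for 20 S phase members (blue), 19 mitosis members (red) and all 27018 genes with a window (grey). The CHR stands in 16 of the 19 mitosis windows, and the E2F match in 7 of the 20 S phase windows.

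The MCM helicase, a ring of MCM2 to MCM7 that unwinds DNA ahead of the fork, was lower for most of its subunits. Of 6 members 4 fell, 1 rose and 1 did not pass the test, and the 6 did not overlap between groups. Of all genes tested 69.3% were called and 74.5% did not overlap. Mcm4 was at 62.4, 65.4 and 62.4 CPM in TNFR2-deficient libraries 1 to 3 and at 96.3, 90.1 and 90.6 CPM in TNFR2-positive libraries 1 to 3 (log2FC = -0.54, SE 0.0589, edgeR adjusted p = 7.85e-06). Mcm6 was at 84.1, 86.6 and 84.4 against 116.6, 112.5 and 113.5 CPM (log2FC = -0.43, SE 0.0554, adjusted p = 3.2e-05). Mcm5 was at 55.6, 60.4 and 55.8 against 71.1, 76.5 and 76.3 CPM (log2FC = -0.38, SE 0.0629, adjusted p = 0.000194). In each of these 3 genes every TNFR2-deficient library lay below every TNFR2-positive one, with gaps wider than the spread within a group. Mcm3 fell as well (log2FC = -0.29, adjusted p = 0.00144), and Mcm2 had a log2FC of -0.08 (95% interval -0.20 to 0.05, adjusted p = 0.241). With each library's relation to exonic length removed it had a log2FC of 0.19 (adjusted p = 0.0116). Pcna and Ndc80 changed sign there as well, with no call on either side. Mcm7 rose slightly, from 85.1, 86.3 and 87.6 CPM in the TNFR2-positive libraries to 95.6, 96.9 and 96.1 CPM (log2FC = 0.16, SE 0.0546, edgeR adjusted p = 0.0229). That call was lost without any one of TNFR2-deficient replicates 1, 2 and 3 (adjusted p = 0.0800, 0.0836 and 0.0987), without TNFR2-positive replicate 2 (0.0631), with DESeq2's size factors (0.0606) and with DESeq2 (0.112), and over all alternatives its adjusted p ran from 0.00288 to 1. Exons of Mcm7 share 12.6% of their length with other genes, among them Cops6 and Ap4m1 on the opposite strand, of which Cops6 was higher (log2FC = 0.44) and Ap4m1 lower (log2FC = -0.64), and without a stated strand setting such reads cannot be told apart.

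Genes that load the helicase and start forks split. Of 6 members 2 fell, 1 rose and 3 did not pass. Mcm10, which helps to activate the helicase, was at 5.97, 5.64 and 6.07 against 9.26, 8.59 and 8.47 CPM (log2FC = -0.57, adjusted p = 0.000534). Cdc6, a loader of the helicase at origins, was at 5.71, 5.87 and 5.86 against 8.57, 8.39 and 8.29 CPM (log2FC = -0.53, adjusted p = 0.000762). Both were lower in every TNFR2-deficient library than in any TNFR2-positive one. With the relation to length removed Mcm10 was at a log2FC of -0.26 (adjusted p = 0.0493). Gins1, a subunit of the GINS complex that joins CDC45 and the MCM ring into the active helicase, was at 8.26, 7.13 and 7.03 against 4.37, 4.66 and 5.06 CPM (log2FC = 0.67, adjusted p = 0.000541), the greatest rise among the S phase members. Its partner Gins2 had a log2FC of -0.04 (95% interval -0.46 to 0.37), but 67.3% of its exonic bases are shared with Gse1 on the opposite strand. Cdc45 and Cdt1, the second loader of the helicase, had log2FC of -0.17 and 0.13 (95% intervals -0.46 to 0.12 and -0.06 to 0.32), and Cdt1 passed without TNFR2-positive replicate 3 (log2FC = 0.21, adjusted p = 0.0468).

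Of 4 members that synthesise the strands 1 fell and the other 3 did not pass the test. Pola1, the catalytic subunit of DNA polymerase alpha, was at 12.7, 13.1 and 13.1 CPM in TNFR2-deficient libraries 1 to 3 and at 31.5, 22.5 and 23.1 CPM in the TNFR2-positive ones (log2FC = -0.99, SE 0.122, adjusted p = 2.13e-05). This was the greatest fall among the S phase members. TNFR2-positive library 1 stood above the other 2, and without it the log2FC was -0.82. With the relation to length removed it was -0.61. Prim1, the primase of the same complex, had a log2FC of -0.04 (95% interval -0.20 to 0.12). Pcna, the sliding clamp, was at 177.3, 171.4 and 170.1 against 153.1, 163.2 and 164 CPM (log2FC = 0.11, adjusted p = 0.104), with no overlap between groups. With upper-quartile scaling its adjusted p was 0.0312. A near copy of it, Pcna-ps2, is listed as a gene of its own with 11.2% of the counts of Pcna, so both levels are uncertain. Pcna-ps2 was called higher in the TNFR2-deficient libraries (log2FC = 0.34, edgeR adjusted p = 0.00279). Fen1, the flap endonuclease that trims Okazaki fragments, was at 2.25, 1.90 and 2.16 against 2.79, 1.84 and 2.25 CPM (log2FC = -0.13, adjusted p = 0.597). Of its exonic bases 84.2% are shared with genes on the opposite strand, Tmem258 among them, which was at 41.9 ± 2.94 against 26.9 ± 2.22 CPM (SD, n = 3), so the low values of Fen1 are uncertain.

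The enzymes of nucleotide supply also divided, with 1 higher, 1 lower and 3 not past the threshold. Dut, the dUTPase that keeps uracil out of DNA, was at 49.5, 51.1 and 52.1 against 32.2, 34.9 and 37.2 CPM (log2FC = 0.55, SE 0.0686, adjusted p = 2.34e-05). Rrm1, the large subunit of ribonucleotide reductase, was at 64.0, 63.0 and 57.5 against 90.3, 81.2 and 93.4 CPM (log2FC = -0.52, SE 0.0709, adjusted p = 4.43e-05). These 2 genes moved apart by similar amounts with no overlap between groups. Rrm1 has one of the longest exonic lengths of the members, and with the relation to length removed its log2FC was -0.05 (adjusted p = 0.579). Rrm2, the small and periodic subunit, had a log2FC of -0.03 (95% interval -0.17 to 0.11) and Tyms, thymidylate synthase, one of 0.00 (95% interval -0.23 to 0.23). Tk1, thymidine kinase, was at 24.6, 27.1 and 27.4 against 29.4, 29.1 and 28.8 CPM (log2FC = -0.14, adjusted p = 0.0843), and passed with DESeq2's size factors in edgeR (0.0407).

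The 3 members that govern entry into S phase all passed the test, as did 69.3% of all genes tested. E2f1, a transcription factor that switches on replication genes, was at 9.34, 11.01 and 10.3 against 5.83, 7.93 and 7.63 CPM (log2FC = 0.52, SE 0.132, adjusted p = 0.00381). The cyclins that activate CDK2 moved the other way. Ccne1 was at 12.3, 13.0 and 12.02 against 14.7, 16.6 and 14.7 CPM (log2FC = -0.30, adjusted p = 0.0117) and Ccne2 at 7.96, 6.90 and 8.65 against 11.9, 10.3 and 10.1 CPM (log2FC = -0.46, adjusted p = 0.00422). The groups did not overlap for any of the 3, nor for 74.5% of all genes tested. The Ccne1 call was lost without TNFR2-positive replicate 2 (adjusted p = 0.0508, with a range over its alternatives of 0.000982 to 1). Exons of Ccne2 share 17.4% of their length with Ints8 on the opposite strand, which was lower too (log2FC = -0.51).

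**Figure D3:**
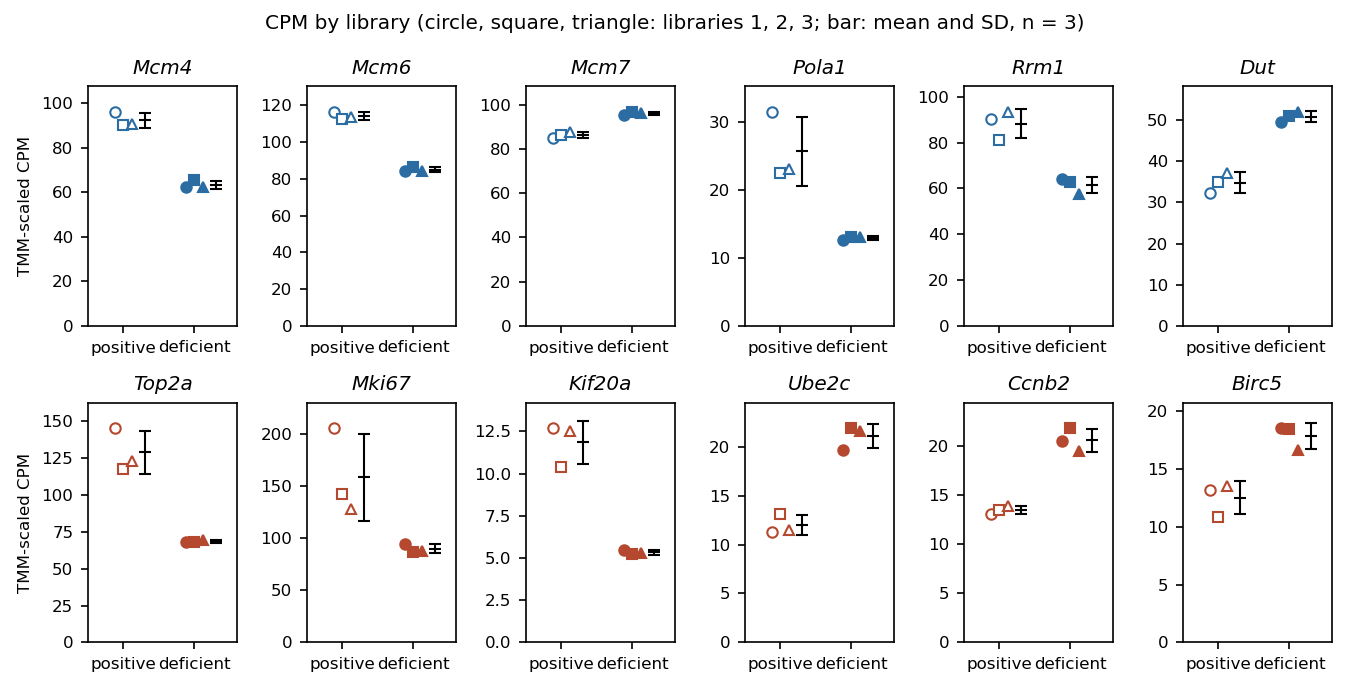
TMM-scaled CPM (y axis, from 0) of 6 S phase members (top, blue) and 6 mitosis members (bottom, red) in the 3 TNFR2-positive libraries (open) and the 3 TNFR2-deficient libraries (filled), with mean and SD beside them. Top2a lies at 68.2 to 69.7 in the TNFR2-deficient libraries and at 117.9 to 145.4 in the TNFR2-positive ones, while Ube2c and Ccnb2 lie higher in the TNFR2-deficient libraries.

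Among the mitosis members, 2 of the 4 genes of the cyclins and CDK1 rose and the other 2 did not pass the test. Ccnb2, a B-type cyclin that partners CDK1, was at 20.5, 21.8 and 19.5 CPM in TNFR2-deficient libraries 1 to 3 and at 13.1, 13.5 and 13.9 CPM in the TNFR2-positive ones (log2FC = 0.61, SE 0.0813, adjusted p = 3.88e-05). Cdk1 itself, the kinase that drives entry into mitosis, was at 18.1, 15.7 and 17.0 against 13.7, 12.8 and 13.1 CPM (log2FC = 0.36, SE 0.0878, adjusted p = 0.00331). Every TNFR2-deficient library exceeded every TNFR2-positive one for both. Ccna2, a cyclin of S phase and early mitosis, was at 20.1, 22.3 and 21.8 against 25.97, 24.2 and 20.1 CPM (log2FC = -0.13, adjusted p = 0.242), so its groups overlapped, and without TNFR2-positive replicate 3 it passed (log2FC = -0.23, adjusted p = 0.0331). Ccnb1, the main B-type cyclin, had a log2FC of 0.04 (95% interval -0.16 to 0.23). Counts of a pseudogene, Ccnb2-ps, came to 43.2% of those of Ccnb2, with a log2FC of 0.17 (adjusted p = 0.17), so reads of the pair may have been split between them.

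Of 5 mitotic kinases and checkpoint genes 3 rose, 1 fell and 1 did not pass, and none overlapped between groups. Among all genes tested 69.3% were called and 74.5% did not overlap. Birc5, which encodes survivin of the chromosomal passenger complex, was at 18.5, 18.4 and 16.6 against 13.2, 10.8 and 13.5 CPM (log2FC = 0.51, adjusted p = 0.000756). Plk1, the Polo-like kinase of spindle assembly, was at 13.5, 16.2 and 14.9 against 11.7, 11.3 and 10.2 CPM (log2FC = 0.43, adjusted p = 0.0024). Bub1, a spindle checkpoint kinase, went the other way, at 8.52, 7.90 and 8.98 against 14.5, 11.5 and 12.1 CPM (log2FC = -0.59, adjusted p = 0.000633). The values of Bub1 were highest in TNFR2-positive library 1 and still separate from the TNFR2-deficient ones without it. Aurka, the Aurora kinase of centrosomes, rose too (log2FC = 0.36, adjusted p = 0.00697). Aurkb, the kinase of the passenger complex, had a log2FC of 0.17 (adjusted p = 0.0667, and 0.0246 with upper-quartile scaling). Of its other 2 partners in that complex, Cdca8 rose (log2FC = 0.43, adjusted p = 0.000453) and Incenp rose by little (log2FC = 0.15, adjusted p = 0.0445).

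Genes of the centromere and kinetochore were lower or did not pass. Of 5 members 3 fell and none rose. Cenpa, the histone H3 variant that marks centromeres, was at 40.1, 39.5 and 42.9 against 68.7, 58.9 and 64.3 CPM (log2FC = -0.65, SE 0.0711, adjusted p = 8.35e-06). Cenpe, a kinetochore motor, was at 13.97, 14.8 and 13.7 against 29.4, 23.4 and 21.3 CPM (log2FC = -0.81, SE 0.113, adjusted p = 5.8e-05). Cenpf, a large kinetochore protein, was at 8.69, 9.30 and 8.73 against 21.0, 14.5 and 12.5 CPM (log2FC = -0.85, SE 0.164, adjusted p = 0.000618). The TNFR2-deficient libraries were tightly grouped in all 3, and TNFR2-positive library 1 was the highest in each. Without it the log2FC of Cenpe and Cenpf was -0.66 and -0.60. With the relation to exonic length removed Cenpe was at -0.43, and Cenpf no longer passed (log2FC = -0.22, adjusted p = 0.107). Ndc80 and Nuf2, which form one arm of the microtubule-binding NDC80 complex, had log2FC of -0.07 and 0.14 (95% intervals -0.30 to 0.16 and -0.10 to 0.39). Nuf2 passed with the relation to length removed (log2FC = 0.37, adjusted p = 0.00661). Spc24 and Spc25, the other arm of that complex, both rose (log2FC = 0.44 and 0.43, with adjusted p = 0.0233 and 0.00902).

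Spindle motors and microtubule binders were lower as well, with 4 of 6 members past the threshold, all lower. Kif20a, a kinesin of cytokinesis, was at 5.49, 5.23 and 5.28 CPM in TNFR2-deficient libraries 1 to 3 and at 12.7, 10.4 and 12.5 CPM in the TNFR2-positive ones (log2FC = -1.15, SE 0.116, adjusted p = 4.18e-06). It was 2.22-fold lower, the greatest change of the 47, and its log2FC was -1.12 with the relation to length removed and -1.11 without TNFR2-positive replicate 1. Cdc23, which shares 29.3% of the exonic bases of Kif20a from the opposite strand, was lower too (log2FC = -0.46, adjusted p = 4.1e-05). Prc1, the bundler of antiparallel microtubules at the midzone, was at 10.1, 8.26 and 10.2 against 18.1, 15.8 and 15.4 CPM (log2FC = -0.79, adjusted p = 5.39e-05). Kif11, the kinesin that pushes spindle poles apart, was at 23.6, 20.2 and 22.5 against 41.4, 34.0 and 32.3 CPM (log2FC = -0.70, adjusted p = 5.7e-05). The groups did not overlap for either, and with the relation to length removed the log2FC was -0.44 for Prc1 and -0.40 for Kif11. Hmmr, a microtubule-binding protein of spindle poles, also fell (log2FC = -0.62, adjusted p = 0.000983). Tpx2, the activator of Aurora A, and Nusap1, a spindle stabiliser, had log2FC of -0.12 and 0.13 (95% intervals -0.28 to 0.04 and -0.04 to 0.30).

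The remaining 3 mitosis members include the greatest rise and 2 of the widest falls of the list. Top2a, the topoisomerase that untangles sister chromatids, was at 68.2, 68.2 and 69.7 against 145.4, 117.9 and 123.4 CPM (log2FC = -0.91, SE 0.0779, adjusted p = 1.26e-06). Mki67, the Ki-67 protein that coats mitotic chromosomes and serves as the usual mark of dividing cells, was at 94.8, 87.1 and 88.1 against 206, 142.3 and 127.9 CPM (log2FC = -0.82, SE 0.139, adjusted p = 0.000245). Ube2c, the ubiquitin-conjugating enzyme of mitotic exit, was at 19.6, 21.9 and 21.6 against 11.3, 13.1 and 11.5 CPM (log2FC = 0.82, SE 0.0907, adjusted p = 9.51e-06). Exons of Ube2c share 22.8% of their length with Tnnc2 on the opposite strand, so its level is uncertain. All 3 are textbook markers of division, and in the same libraries 2 were lower and 1 was higher with no overlap between groups. The Mki67 difference was smaller without TNFR2-positive replicate 1 (log2FC = -0.59), and with the relation to length removed the log2FC was -0.52 for Top2a, -0.37 for Mki67 and 0.71 for Ube2c.

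The direction of a member went with its exonic length. Exonic length here is the number of bases in the annotated exons of a gene, merged over all its transcripts. It can therefore exceed the length of the transcript that the cells made. Of the 17 members of 5000 bases or more 12 fell and none rose, with a median log2FC of -0.62. Of the 30 shorter members 10 rose and 8 fell, with a median log2FC of 0.00. All genes leaned the same way and by less: 1023 of 5512 tested genes of 5000 bases or more rose and 3129 fell (median log2FC = -0.33), against 4853 and 2566 of 11131 shorter ones (median log2FC = 0.23). The rank correlation between log2FC and exonic length was -0.80 across the 23 mitosis members, -0.57 across the 24 S phase members and -0.30 across 16643 tested genes, where the points share the same 6 libraries. Within the mitosis list the 6 that rose, Ube2c, Ccnb2, Birc5, Plk1, Aurka and Cdk1, have 1531 to 4934 exonic bases. Of the 10 that fell only Kif20a and Bub1 are shorter than 5000 bases. Whether length acts on the counts or stands for something else was not tested.

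**Figure D4:**
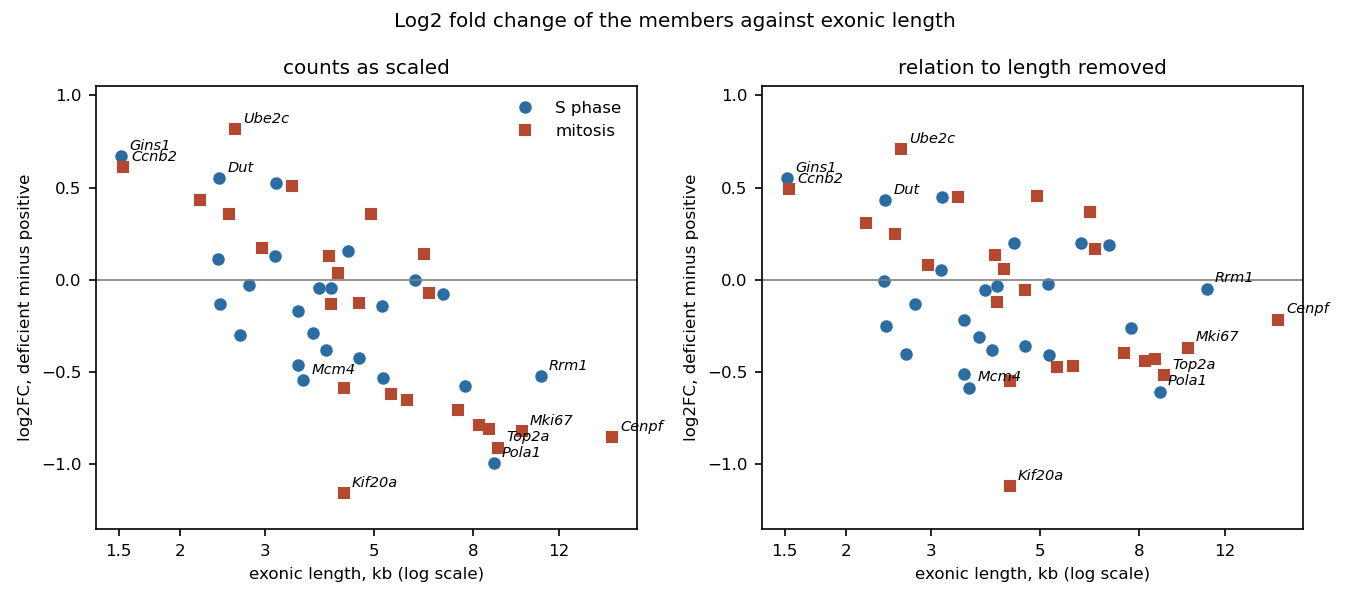
Log2FC of the members (S phase blue circles, mitosis red squares) against exonic length in kb (log scale), from the fit of the scaled counts (left) and with each library's relation to exonic length removed (right). On the left the mitosis members descend from Ube2c and Ccnb2 to Mki67, Top2a and Cenpf, and Kif20a lies apart at -1.15; on the right Kif20a stays at -1.12 while Cenpf lies at -0.22.

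With that relation removed by an offset fitted to all genes, the counts of members called hardly moved but the sizes did. Of the S phase members 5 were then higher and 9 lower, and of the mitosis members 7 and 9. Of the 14 S phase and 16 mitosis members called before, 13 and 15 were called in the same direction. The medians were -0.09 and -0.05. The rank correlation with length was still -0.56 across the mitosis members and -0.23 across the S phase members. Kif20a, Pola1, Mcm4, Bub1, Top2a and Ccne2 remained among the lower genes at -1.12, -0.61, -0.58, -0.55, -0.52 and -0.51, and Ube2c, Gins1, Ccnb2, Cdk1, Birc5 and E2f1 among the higher ones at 0.71, 0.55, 0.49, 0.45, 0.45 and 0.45.

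TNFR2-positive library 1 stood apart from libraries 2 and 3 across the tested genes, the mitosis members among them. A chi-square per gene between the counts of 2 libraries was 15.95 and 21.3 for library 1 against libraries 2 and 3. Between libraries 2 and 3 it was 2.59. On the log2 scale (CPM + 0.5) library 1 lay above the mean of the other 2 for 19 of 23 mitosis members. The median there was 0.17, with up to 0.62 for Cenpf, while 11 of 24 S phase members lay above. This deviation also followed exonic length, with a rank correlation of 0.81 across the mitosis members, 0.44 across the S phase members and 0.36 across all genes with a length. Without that library the calls in the lists were the same 14 S phase and 16 mitosis members in the same directions, the mitosis median was -0.05, and the correlation of log2FC with length was -0.76 for mitosis and -0.63 for S phase. The TNFR2-deficient libraries differed from each other by medians of at most 0.07 in either list.

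Summed over a list, the S phase members held 949.5 ± 14.6 CPM in the TNFR2-deficient libraries and 1050.1 ± 15.1 CPM in the TNFR2-positive ones (SD, n = 3), or 90.4%. The mitosis members held 511 ± 8.04 against 684 ± 85.0 CPM, or 74.8%, and 80.6% without TNFR2-positive library 1. These sums are set by a few abundant genes and are not divided by exonic length. Divided by length in kb, the mitosis members summed to 107.4, 107.0 and 106.3 in TNFR2-deficient libraries 1 to 3. In the TNFR2-positive ones they summed to 129.7, 112.2 and 112.6. The S phase members summed to 264, 269 and 262 against 271, 278 and 283 on that scale. In CPM, Top2a, Mki67 and Ube2c together were at 60.0% of the TNFR2-positive level, the centromere and kinetochore genes at 70.0% and the spindle genes at 74.1%. The cyclins and CDK1 were at 113.6%, and the kinases and checkpoint genes at 115.9%. Among the S phase roles the MCM ring was at 83.8%, with 422.6 to 437.8 against 507.6 to 517.5 CPM, while strand synthesis was at 99.6% and licensing and firing at 100.5%. Divided by length in kb, strand synthesis summed to 80.3 to 82.9 in the TNFR2-deficient libraries against 75.9 to 79.0. The CPM sum of mitosis over S phase members gave 0.549, 0.521 and 0.546 with the receptor deficient and 0.753, 0.609 and 0.594 with it present. With the sums divided by length, this ratio overlapped between the groups. No test was made of these sums.

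**Figure D5:**
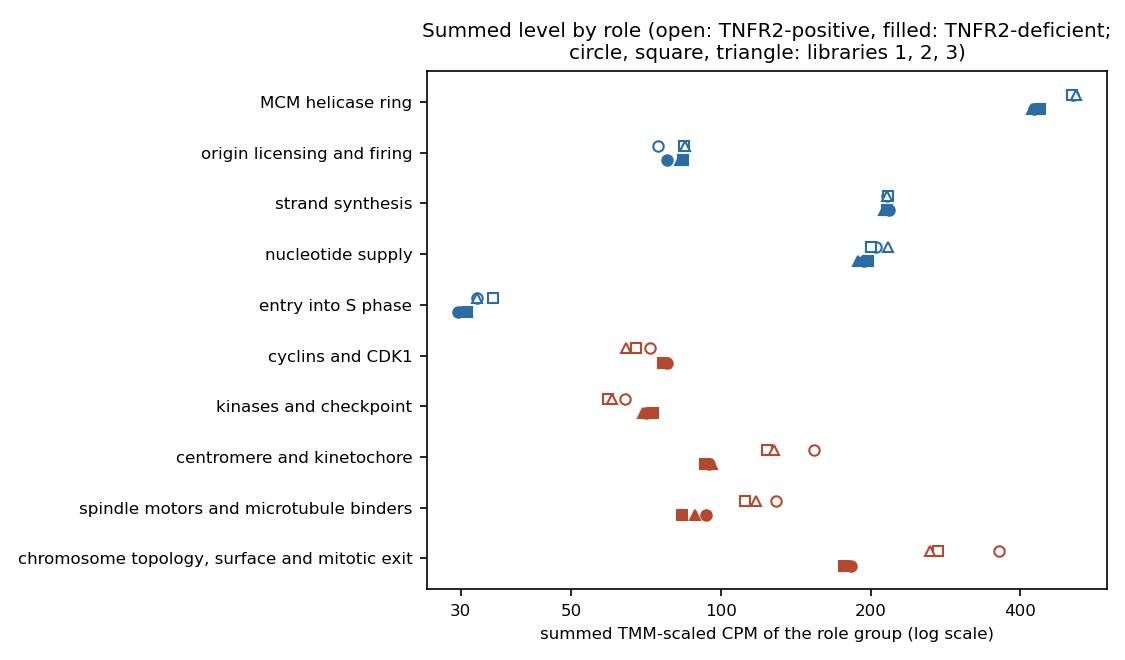
Summed TMM-scaled CPM (log scale) of the members of each role in every library, open for TNFR2-positive and filled for TNFR2-deficient, S phase roles in blue and mitosis roles in red. The sums are not divided by exonic length. The MCM ring lies lower in the TNFR2-deficient libraries (422.6 to 437.8 against 507.6 to 517.5), strand synthesis coincides in CPM, and the cyclins with CDK1 lie higher.

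Levels of different genes were compared per kilobase of exon (CPM per kb). Exonic length is merged over all annotated transcripts of a gene, so the order of genes is uncertain beyond the SDs given. Pcna was the highest member in both groups, at 72.1 ± 1.59 CPM per kb in the TNFR2-deficient and 66.7 ± 2.54 in the TNFR2-positive libraries. In the TNFR2-positive libraries Mcm4 (25.7 ± 0.953), Mcm6 (24.5 ± 0.460), Mcm3 (20.7 ± 1.18), Mcm7 (19.5 ± 0.286) and Mcm5 (18.7 ± 0.773) came next, and neighbours in that order lay within the sum of their SDs except Mcm6 and Mcm3. In the TNFR2-deficient libraries Mcm7 (21.7 ± 0.149) and Dut (21.1 ± 0.541) were next to Pcna, followed by Mcm6 (18.2 ± 0.293), Mcm4 (17.7 ± 0.487) and Mcm3 (17.0 ± 0.372). Mcm2 was lower per kb than its partners in both groups, at 9.09 ± 0.211 and 9.59 ± 0.134 CPM per kb. Its exonic length is 6956 bases, against 3589 (Mcm4) to 4666 (Mcm6) for the partners. Without division by length, its TNFR2-deficient mean was 63.3 CPM, beside 57.3 (Mcm5), 63.4 (Mcm4), 63.8 (Mcm3), 85.0 (Mcm6) and 96.2 (Mcm7). Its TNFR2-positive mean was 66.7 CPM, beside 74.6 (Mcm5) to 114.2 (Mcm6). The highest mitosis members were Mki67 (15.8 ± 4.13) and Top2a (14.3 ± 1.61) in the TNFR2-positive libraries, which did not differ beyond their SDs, and Ccnb2 in the TNFR2-deficient ones (13.5 ± 0.767). Ube2c moved from rank 25 to rank 13 of the 47, and Dut from rank 10 to rank 3. Cenpf, Fen1, Gins2 and Mcm10 held the 4 lowest places in both groups. All were at 0.577 to 1.14 CPM per kb.

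Other genes of the same processes, which are not members, also moved in both directions. The share called was 69% among the further replication genes, beside 69.3% of all genes tested. Of 42 further replication genes 10 rose and 19 fell (median log2FC = -0.10, but 0.01 with a filter at 5 CPM, 0.04 with the relation to length removed, -0.05 without TNFR2-deficient replicate 3 and -0.02 without TNFR2-positive replicate 3). Rfc1, the large subunit of the clamp loader, fell (log2FC = -0.78, adjusted p = 1.42e-06), as did Topbp1, an activator of origin firing and of the ATR kinase (log2FC = -0.92, adjusted p = 2.52e-06), and Pole, the leading-strand polymerase, which was at 9.77 ± 0.924 against 22.9 ± 4.16 CPM (log2FC = -1.23, adjusted p = 5.72e-06). Rpa3, the small subunit of the single-strand binding complex (log2FC = 0.68, adjusted p = 1.35e-05), Gins4 (log2FC = 0.55, adjusted p = 0.000111) and Pold1, the catalytic subunit of polymerase delta (log2FC = 0.40, adjusted p = 0.000127), rose. The partners of Rfc1 and Pola1 are given next, chosen after their values were seen. Where Rfc1 fell, the clamp loader subunits Rfc2 and Rfc3 rose (log2FC = 0.33 and 0.35, with adjusted p = 0.000523 and 0.00155), while Rfc4 and Rfc5 did not pass (log2FC = 0.23 and 0.06, with adjusted p = 0.0716 and 0.456). Pola2 and Prim2, the partners of Pola1, did not pass either, with log2FC of -0.09 and 0.15 (adjusted p = 0.206 and 0.33).

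Of 55 further mitosis genes 16 rose and 20 fell (median log2FC = -0.12, but 0.07 with the relation to length removed and 0.02 without TNFR2-positive replicate 3). Racgap1, a regulator of the cleavage furrow, fell (log2FC = -0.74, adjusted p = 1.83e-06), and so did Ckap5, a microtubule polymerase (log2FC = -0.87, adjusted p = 9.08e-06), and Smc2, a condensin subunit (log2FC = -0.82, adjusted p = 1.81e-05). Cdca3 (log2FC = 0.74, adjusted p = 8.76e-06), the mitotic kinase Pbk (log2FC = 0.997, adjusted p = 1.75e-05) and Pttg1, the securin that holds back separase (log2FC = 0.70, adjusted p = 3.03e-05), rose. None of the 55 changed by 2-fold or more, against 21.5% of all genes past the threshold by that much. Calls of any size came to 65.5% of the 55, beside 69.3% of all genes tested.

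Among the genes that control entry into the cycle and progress through it, 14 of 33 tested rose and 11 fell. Their median log2FC was 0.04, with a range over the alternatives from 0.01 (DESeq2's size factors) to 0.22 (relation to length removed), and from 0.02 without TNFR2-deficient replicate 1 to 0.11 without TNFR2-positive replicate 1. Calls of any size came to 75.8% of the 33, beside 69.3% of all genes tested. At least 2-fold changes were called for 5 of the 33, beside 21.5% of all genes tested. The median absolute log2FC of the 33 was 0.43 against 0.49 for all genes. Cyclin D3, which thymocytes depend on, and cyclin D2, which mature T cells induce, moved in opposite directions. Ccnd3 stood at 253 ± 2.33 CPM in the TNFR2-deficient group against 80.2 ± 6.80 CPM (SD, n = 3; log2FC = 1.66, edgeR adjusted p = 3.32e-09), and Ccnd2 at 40.3 ± 3.195 against 182.2 ± 19.7 CPM (log2FC = -2.18, adjusted p = 2.65e-09). Their partner kinase Cdk6 fell (log2FC = -1.22, adjusted p = 1.03e-06), and the pocket protein Rbl1 fell less (log2FC = -0.66, adjusted p = 0.000115). Lin37, of the DREAM complex that silences cell cycle genes in resting cells through the CHR, rose (log2FC = 1.01, adjusted p = 4.62e-07), as did Cdkn2d, an inhibitor of CDK4 and CDK6 (log2FC = 1.16, adjusted p = 6.49e-07). Other genes of the DREAM complex went both ways. Lin52 and E2f4 rose (log2FC = 0.51 and 0.67), Rbl2 and Lin9 fell (log2FC = -0.50 and -0.25), and E2f5, Tfdp1 and Tfdp2 did not pass (log2FC = 0.01, -0.09 and 0.04). Rag1, a recombinase gene of immature thymocytes, was at 834.2 to 965.8 against 3.22 to 3.37 CPM in the same libraries. Its part in these differences was not tested.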

How the data were processed

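Polyadenylated RNA of 6 libraries was sequenced, and the authors deposited whole-number read counts per Ensembl gene, without normalization. The aligner HISAT2 2.1.0 and the build GRCm39 are named, per the submitters' processing notes. For the counting program, annotation, strand setting and handling of multiply mapped reads, nothing is given in the sources used here.

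Of 32377 genes 30529 had a symbol. Lengths and exon overlaps came from GENCODE M21 and promoter windows from RefSeq (GRCm38.p6), both of an older build. Genes were filtered with filterByExpr, scaled by TMM, and fitted by the quasi-likelihood functions (glmQLFit, glmQLFTest) in edgeR 4.0.16 under R 4.3.3, with group as the only term, and p-values were adjusted by Benjamini-Hochberg over 17022 genes. The common biological coefficient of variation was 7.62%. The test and the length removal (splines with 4 degrees of freedom) were tested on simulated data. Alternatives were DESeq2 1.42.0, limma-voom (limma 3.58.1), other scalings and filters, a minimum fold change, a replicate block and leaving out each library. The members, lists and alternatives were chosen with earlier results of these data known. Per-library values are given for the 3 members of each role with the smallest adjusted p and those with an absolute log2FC of at least 0.8. Of the other genes of the pathway, the 3 with the smallest adjusted p in each direction are named in each list, and further ones were chosen after their values were seen. 1 listed control gene is not analysed here.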

Additional observations from a re-analysis of the deposited data

How the results depend on the processing

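The 16 alternatives were applied to the counts of S phase members, mitosis members and all genes past the threshold, and to each member. Requiring a log2FC beyond 0.5 (glmTreat) left 1 S phase member called (0 higher, 1 lower), 9 mitosis members (1 higher) and 5277 of all genes (2124 higher, 3153 lower). Under the other 15, S phase calls stayed between 12 and 15 and mitosis calls between 16 and 17. Leaving out 1 library gave 12 to 15 and 16 to 17 calls. Only Mcm2 changed direction with a call, at 0.19 with the relation to exonic length removed, which the offset for length sets by its construction. The replicate numbers did not pair the libraries (correlations of deviations 0.03, 0.05 and -0.05 for same-numbered libraries), and the fit with the replicate block called 14 S phase and 16 mitosis members, as without it. In the last 150 bases of the promoter windows, 19 of 39 members held a CHR, 25 a CCAAT box and 4 an E2F match. Genes near 2 CPM, such as Fen1, had wide intervals (-0.59 to 0.33).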

Other observations

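Ratios between 2 genes of one library do not depend on the scaling between libraries, but they keep any relation between change and gene length. In 11 pairs chosen after their values were seen, counts per exonic base were divided within each library, and in all 11 the groups did not overlap. No test is given, since the pairs were chosen for their difference. Mcm4 over Mcm7, 2 subunits of one ring, was at 0.805, 0.833 and 0.801 in TNFR2-deficient libraries 1 to 3. In the TNFR2-positive ones it was at 1.40, 1.29 and 1.28, so by this measure the higher of the 2 changed with the group. Pola1 over its primase partner Prim1 was at 0.215, 0.198 and 0.212 against 0.487, 0.333 and 0.384. Rrm1 over Rrm2, the 2 subunits of ribonucleotide reductase, was at 0.368, 0.355 and 0.349 against 0.536, 0.469 and 0.506, but with the relation to length removed the log2FC of Rrm1 and Rrm2 was -0.05 and -0.13, so the pair no longer moved apart in that direction. Ccnb2 over Ccnb1 was at 2.93, 3.63 and 2.81 against 1.87, 2.19 and 2.22. Ube2c over Mki67 differed by 1.603 and Kif20a over Plk1 by -1.58 on the log2 scale. Among control genes, Ccnd3 over Ccnd2 was at 6.12, 7.24 and 6.93 against 0.379, 0.518 and 0.537. By this measure cyclin D3 exceeded cyclin D2 in each TNFR2-deficient library and fell below it in each TNFR2-positive one. Exonic lengths are merged over all transcripts of a gene. Which of 2 genes had more transcripts within a library therefore depends on those lengths and was not tested.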
